A study of Mus musculus with 3 samples.

Results

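The Cyp2c genes encode a subfamily of cytochrome P450 enzymes. The rows named Cyp2c29, Cyp2c37, Cyp2c38, Cyp2c39, Cyp2c40, Cyp2c44, Cyp2c50, Cyp2c54 and Cyp2c55 were taken by name from the 3 deposited liver tables, which made 9 of 41799 genes. Cyp2c70, a bile acid hydroxylase, was not among them. The 6 other Cyp2c rows (Cyp2c65, Cyp2c66, Cyp2c67, Cyp2c68, Cyp2c69 and Cyp2c53-ps) served as copies for comparison.

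Enzymes of this subfamily sit in the endoplasmic reticulum of hepatocytes and oxidise drugs, steroids and polyunsaturated fatty acids. From arachidonic acid they form epoxyeicosatrienoic acids and hydroxyeicosatetraenoic acids, lipid mediators that soluble epoxide hydrolase and other enzymes then clear. They take electrons from cytochrome P450 reductase and need heme, and their genes are known targets of the xenobiotic receptors CAR and PXR, of HNF4 alpha and, in rodents, of the sex-dependent growth hormone pattern.

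All mice were male C57BL/6 aged 14 weeks. The chow library came from the liver of mice on regular chow, the high-fat library from mice on a high-fat diet, and the DfCS-Ib library from mice on that diet that also took 40 mg/kg of DfCS-Ib by oral gavage. The series describes DfCS-Ib as a sulfated oligosaccharide. There were 8 mice in each group, and how many gave RNA to a library is not stated. Each group had 1 library, so no value below has a replicate check, no p-value was computed, and a difference between groups cannot be told apart from a difference between individual mice or RNA preparations.

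Total counts were 11028671, 12279537 and 10969699 for chow, high-fat and DfCS-Ib. In the same order a count of 0 allows up to 3 counts, which is 0.279, 0.233 and 0.280 CPM (read counts put on a common library size), for counting error only. None of 10 hepatocyte markers was at 0 in any library. Of 8 exocrine pancreas markers 7 were listed at 0 in all 3 libraries, and of 7 intestinal markers 4 were (Cdx2, Muc2, Cyp2c65 and Cyp2c66), while the other 3 (Vil1, Lgals4 and Fabp2) had counts. The intestinal list summed to 85.2, 111 and 103 CPM in chow, high-fat and DfCS-Ib. The summed level of the macrophage markers was 331, 419 and 720 CPM. The part of either list in the differences of Cyp2c genes was not tested. In bulk tissue, more cells of a type and more RNA per cell cannot be told apart.

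Levels within a library are given below as the authors' RPKM (read counts divided by gene length and library total). A fold is the ratio of scaled counts of a pair of libraries, with a 95% exact interval that covers counting error only. A gene was called where log2(CPM + 1) differed by at least 1, that is, 2-fold on that scale. The printed folds have no added 1, so a rare gene can pass 2-fold without being called. All 9 genes passed the filter, a mean over the libraries of at least 1 CPM, as did 13153 genes in all.

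Cyp2c29 was the most abundant of the genes in every library, with the widest lead in the high-fat library. It was higher than in chow on the high-fat diet both without and with DfCS-Ib. In the high-fat library 3 of the 9 genes were called higher than in chow (Cyp2c55, Cyp2c29 and Cyp2c50), where 3.47% of all genes tested were, and 1 was called lower (Cyp2c39), where 2.27% were. With DfCS-Ib on the high-fat diet, 0 of 9 were called higher than on the high-fat diet alone, beside 2.46% of all genes, and 1 was called lower (Cyp2c55), beside 2.02%. Against chow, the DfCS-Ib library had 3 genes called higher (Cyp2c29, Cyp2c50 and Cyp2c54), beside 1.62% of all genes, and 2 called lower (Cyp2c38 and Cyp2c39), beside 0.433%. Each library serves in 2 of these comparisons, so they are not independent.

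The median log2 difference of the 9 genes was 0.85 for high-fat against chow, 0.28 for DfCS-Ib against high-fat and 0.45 for DfCS-Ib against chow. Over all genes tested it was 0.02, -0.01 and 0.00. Over the alternatives the medians of the Cyp2c genes ran from 0.84 to 0.95, from 0.01 to 0.29 and from 0.28 to 0.94. With a mean of at least 10 CPM, which leaves out the rare genes, the last 2 were 0.01 and 0.94. The genes did not form a block: in the first comparison 6 lay above 0 and 3 below, with a range from -1.62 for Cyp2c39 to 2.41 for Cyp2c29.

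**Figure D1:**
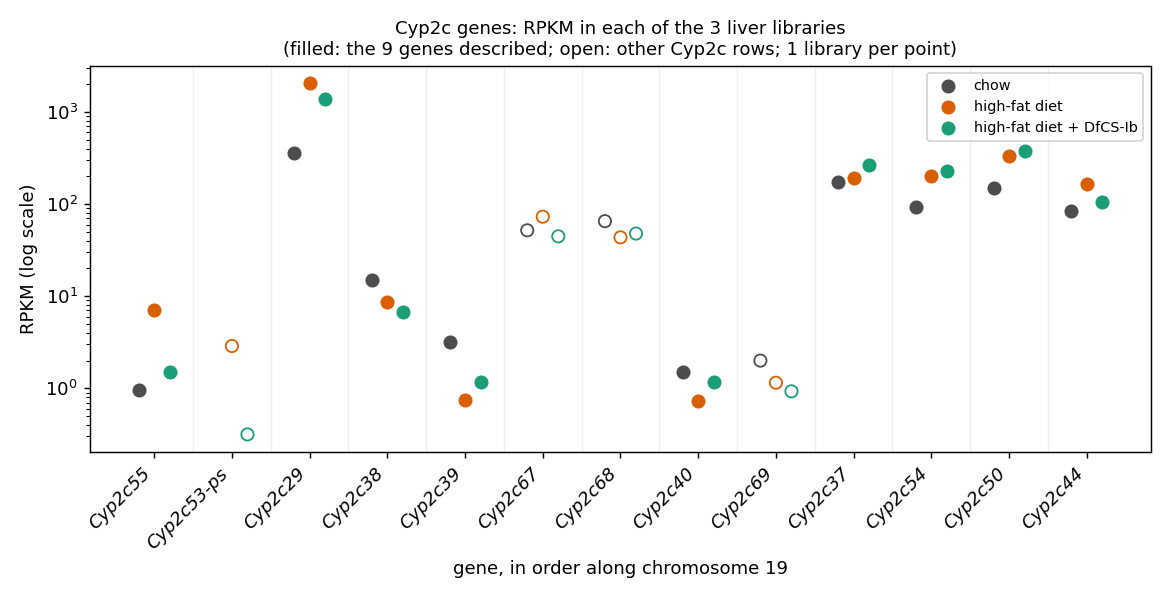
RPKM on a log axis for each Cyp2c row with a count, in order along chromosome 19, with 1 point per library (grey chow, orange high-fat diet, green high-fat diet with DfCS-Ib; filled points are the 9 genes described, open points other Cyp2c rows). Cyp2c29 is highest in every library, from 359 RPKM in chow to 2052 RPKM in the high-fat library, and Cyp2c39 and Cyp2c40 lie between 0.723 and 3.22 RPKM.

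**Figure D2:**
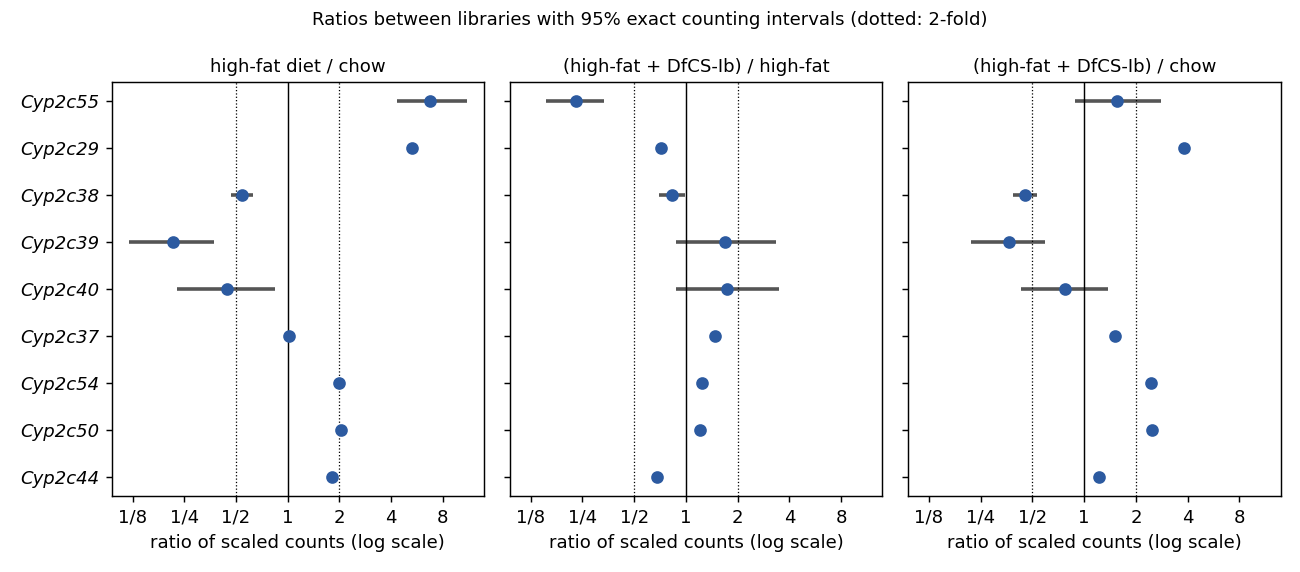
Ratio of scaled counts between each pair of libraries for the 9 genes, on a log axis, with 95% exact counting intervals (bars) and 2-fold as dotted lines. Cyp2c29 and Cyp2c55 lie farthest right for high-fat against chow, at 5.31 and 6.77, and Cyp2c55 alone lies left of 2-fold for DfCS-Ib against high-fat.

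Of the 9 genes 8 lie in a cluster on chromosome 19 of mm10, from 39006938 at Cyp2c55 to 40113955 at Cyp2c50, and Cyp2c44 lies apart from it at 44005022 to 44029247. The cluster holds close copies, and how the authors' counting treated reads that match several of them is not given in the sources used here. In GENCODE M21 transcripts, Cyp2c38 and Cyp2c39 were 93.8% identical over aligned bases, and Cyp2c29 was 87.9% and 88.2% identical to them. A second set was made of Cyp2c37, Cyp2c50 and Cyp2c54, at 94.8% to 95.8%. Cyp2c40 belonged with Cyp2c67, Cyp2c68 and Cyp2c69, at 96.4% to 98.0%.

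As a guide to reads that could match several copies, the share of 50-base stretches that also occur in another gene was taken. The length of 50 was a set value, and only exact matches were counted. This share was 2.08% for Cyp2c29, 1.13% for Cyp2c55 and 0 for Cyp2c44, so nearly all of their stretches of this length are their own. It was 7.45% for Cyp2c38 and 12.0% for Cyp2c39. For Cyp2c37, Cyp2c50 and Cyp2c54 it was 30.1%, 30.7% and 25.7%, and for Cyp2c40 it was 72.1%, so values of these single genes are less certain than their counting intervals show.

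**Figure D3:**
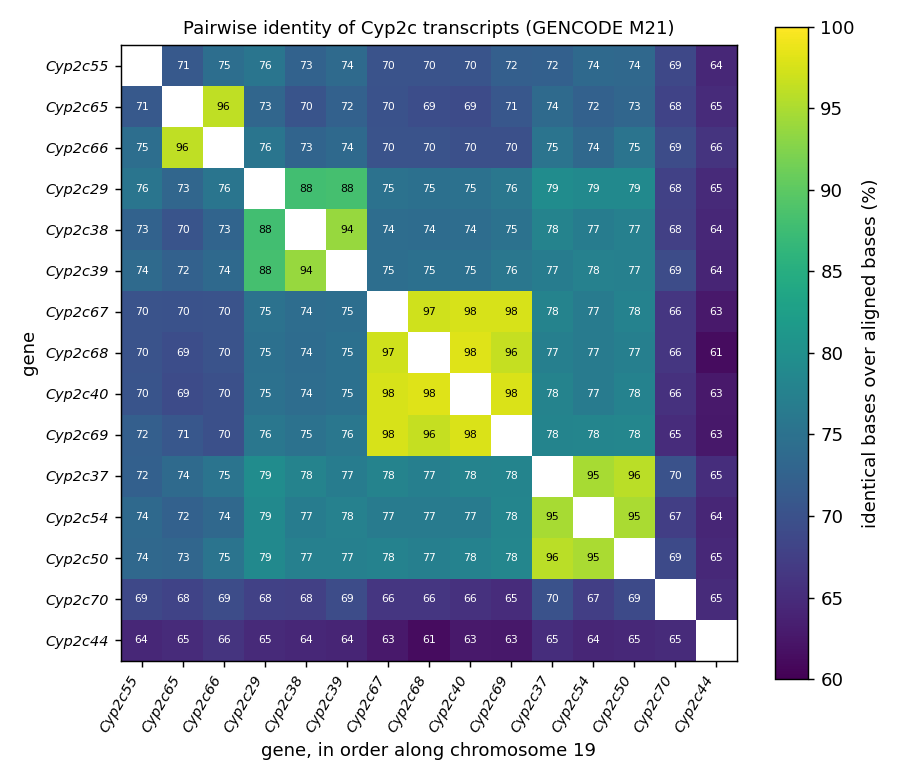
Percent of identical bases over aligned bases for each pair of Cyp2c transcripts, in order along chromosome 19 (colour scale from 60 to 100). The blocks of high identity join Cyp2c65 with Cyp2c66 (96.2%), Cyp2c38 with Cyp2c39 (93.8%), Cyp2c40 with Cyp2c67, Cyp2c68 and Cyp2c69, and Cyp2c37 with Cyp2c54 and Cyp2c50, while the row of Cyp2c44 reaches at most 66.0%.

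The first set, Cyp2c29, Cyp2c38 and Cyp2c39, consists of enzymes that epoxidise arachidonic acid, and Cyp2c39 is also known as a retinoic acid hydroxylase. Their genes follow each other on the chromosome, yet their levels differed in opposite directions. The promoter sequences are shown because similar neighbours differed in this way. RefSeq promoters (GRCm38.p6) matched 7 of the 9 genes, and no entry was matched for Cyp2c44 and Cyp2c54. Each line gives the bases from 250 to 51 before the RefSeq start, 5′ to 3′ on the gene's own strand, with the letters CAAAGTC (the core of an HNF4 site) and AGGTCA (a binding element of nuclear receptors) in capitals. The windows are chr19:39286835-39287034 on the plus strand for Cyp2c29, chr19:39463126-39463325 on the minus strand for Cyp2c38, and chr19:39510572-39510771 on the plus strand for Cyp2c39.
Cyp2c29: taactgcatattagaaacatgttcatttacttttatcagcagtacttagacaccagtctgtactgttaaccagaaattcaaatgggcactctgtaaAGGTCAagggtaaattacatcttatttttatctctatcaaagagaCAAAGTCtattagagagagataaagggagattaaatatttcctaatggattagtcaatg
Cyp2c38: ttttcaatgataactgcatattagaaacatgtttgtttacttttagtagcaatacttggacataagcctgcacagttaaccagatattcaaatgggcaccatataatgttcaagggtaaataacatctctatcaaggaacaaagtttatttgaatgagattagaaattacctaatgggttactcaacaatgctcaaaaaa
Cyp2c39: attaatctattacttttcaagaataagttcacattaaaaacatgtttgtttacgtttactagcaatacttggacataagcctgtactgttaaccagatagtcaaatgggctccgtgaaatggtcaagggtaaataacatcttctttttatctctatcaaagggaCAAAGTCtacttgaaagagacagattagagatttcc

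Over aligned bases of these windows Cyp2c29 and Cyp2c38 were 84.3% identical, Cyp2c29 and Cyp2c39 83.1%, and Cyp2c38 and Cyp2c39 87.1%. CAAAGTC began 109 bases before the start of Cyp2c29 and 86 before that of Cyp2c39, and was not found before Cyp2c38. AGGTCA was found before Cyp2c29 only, of the 7 promoters matched, beginning 154 bases before its start. Searching both strands of the 250 bases before the start, CAAAGTC occurred in 4 of the 7 promoters and in 3.84% of 32851 RefSeq promoters. AGGTCA occurred in 14.0% of them. The longer HNF4 site CAAAGTCCA, which overlaps CAAAGTC, was in 1 of the 7 (Cyp2c40) and in 0.384% of all, the STAT5 site TTCNNNGAA in 0 of the 7 and 7.02% of all, and TATAAA in 3 of the 7 and 12.4% of all. Over all 13 Cyp2c promoters matched, which include Cyp2c70, AGGTCA was in 2 (Cyp2c29 and Cyp2c70). In the same 13, CAAAGTC was in 10 and CAAAGTCCA in 6. Cyp2c promoters are copies of each other and not independent draws. Any part of these motifs in the levels of Cyp2c genes was not tested.

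Cyp2c29 (chromosome 19, 39287044 to 39330713, plus strand), the mouse enzyme classically induced by phenobarbital, had 7243 counts in chow, 46033 in the high-fat library and 27477 in the DfCS-Ib library. This is 359, 2052 and 1371 RPKM. Chow was lowest and the high-fat library highest. The high-fat library was 5.31-fold (5.18 to 5.45) above chow, and 99.7% of all genes tested had a lower log2 difference. With DfCS-Ib the level was 1.40-fold (1.38 to 1.42) below that on the high-fat diet alone and 3.81-fold (3.71 to 3.91) above chow. Thus the DfCS-Ib library lay between the others and closer, on the log2 scale, to the high-fat library (-0.48) than to chow (1.93).

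Cyp2c38 (chromosome 19, 39389556 to 39463089, minus strand) had 484, 314 and 218 counts (15.0, 8.75 and 6.80 RPKM) in chow, high-fat and DfCS-Ib. The order was the reverse of that of Cyp2c29 at the chow end: chow was highest. It was 1.84-fold (1.60 to 2.13) lower in the high-fat library than in chow and 2.21-fold (1.88 to 2.61) lower with DfCS-Ib than in chow. Between the last pair of libraries the fold was 1.20 (1.01 to 1.43) lower with DfCS-Ib, an interval that almost reaches 1.

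Cyp2c39 (chromosome 19, 39510822 to 39568529, plus strand) was rare, with 66 counts in chow, 17 in the high-fat library and 24 with DfCS-Ib (3.22, 0.746 and 1.18 RPKM). Chow stood above both others, by 4.64-fold (2.69 to 8.44) over the high-fat library and 2.74-fold (1.70 to 4.58) over DfCS-Ib. High-fat and DfCS-Ib were not distinguishable at this depth, with a DfCS-Ib level of 1.69-fold (0.872 to 3.36) the high-fat level. With so few counts the call rests on the pseudocount: at 5 CPM neither Cyp2c39 nor Cyp2c38 is called. Summed over the set, the counts followed Cyp2c29, at 4.98-fold (4.86 to 5.10) in the high-fat library over chow.

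The second set was higher with DfCS-Ib than in either other library. Cyp2c37 is known for forming hydroxyeicosatetraenoic acid, and Cyp2c50 and Cyp2c54 for forming both epoxides and hydroxy acids from arachidonic acid. Promoters are shown for the pair that RefSeq held, since their genes differ in the high-fat library while sharing most of this sequence (89.7% of aligned bases). The windows, with the same capitals, are chr19:39992174-39992373 on the plus strand for Cyp2c37 and chr19:40089429-40089628 on the plus strand for Cyp2c50.
Cyp2c37: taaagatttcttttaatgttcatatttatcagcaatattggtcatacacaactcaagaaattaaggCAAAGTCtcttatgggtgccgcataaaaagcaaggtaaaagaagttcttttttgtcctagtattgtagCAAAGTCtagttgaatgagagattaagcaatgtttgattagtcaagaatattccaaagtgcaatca
Cyp2c50: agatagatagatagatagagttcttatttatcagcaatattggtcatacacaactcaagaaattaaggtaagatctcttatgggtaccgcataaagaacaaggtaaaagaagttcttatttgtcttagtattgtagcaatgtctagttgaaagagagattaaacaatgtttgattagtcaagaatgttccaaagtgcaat

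Cyp2c37 holds CAAAGTC beginning 184 and 116 bases before its start, and Cyp2c50 does not hold it. Cyp2c37 (chromosome 19, 39992424 to 40012243, plus strand) had 3504 counts in chow, 4264 in the high-fat library and 5264 with DfCS-Ib (174, 190.4 and 263 RPKM). The high-fat library and chow did not differ beyond counting error, at 1.02-fold (0.973 to 1.06). This depends on the scaling: with plain CPM or RPKM the log2 difference was 0.13 in place of 0.03, which is beyond counting error. DfCS-Ib lay above both, by 1.48-fold (1.42 to 1.54) over high-fat and 1.51-fold (1.44 to 1.57) over chow, and neither difference reached 2-fold.

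Cyp2c50 (chromosome 19, 40089679 to 40113955, plus strand) had 4847, 11910 and 12038 counts (149.9, 331 and 374 RPKM). Chow was lowest, and the high-fat library was 2.05-fold (1.99 to 2.13) above it. DfCS-Ib was 1.21-fold (1.18 to 1.24) above high-fat and 2.49-fold (2.41 to 2.58) above chow. The files give Cyp2c50 a length of 2932 bases, and its GENCODE transcript has 1812, with which its RPKM would be 243, 535 and 606.

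Cyp2c54 (chromosome 19, 40037940 to 40073845, minus strand) lay close to Cyp2c50 in every comparison, with 1868, 4417 and 4565 counts (93.9, 199.4 and 231 RPKM). Its high-fat level was 1.98-fold (1.87 to 2.09) that of chow, just under the threshold that Cyp2c50 just passed, and with plain CPM or RPKM it was called too. DfCS-Ib was 1.24-fold (1.19 to 1.29) above high-fat and 2.45-fold (2.32 to 2.59) above chow. The 3 copies summed were 1.69-fold (1.65 to 1.73) higher in high-fat than in chow, 1.27-fold (1.25 to 1.30) higher with DfCS-Ib than in high-fat, and 2.15-fold (2.10 to 2.20) higher with DfCS-Ib than in chow.

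Cyp2c40 (chromosome 19, 39767073 to 39812814, minus strand), described as a hydroxylase of arachidonic acid in the intestine, was near the limit of these libraries, with 30, 16 and 23 counts (1.51, 0.723 and 1.16 RPKM). Its level was 2.24-fold (1.18 to 4.404) lower in high-fat than in chow. It was not called there, since its log2(CPM + 1) difference was -0.76. The intervals for DfCS-Ib against either library held 1. Cyp2c67, its close copy, had 1009, 1579 and 863 counts and was highest in the high-fat library. Cyp2c68, another copy, had 1314, 976 and 959 counts and was highest in chow. As counted, Cyp2c67 was 1.31-fold (1.21 to 1.42) higher and Cyp2c68 1.61-fold (1.48 to 1.75) lower in high-fat than in chow. Of their 50-base stretches 52.8% and 43.3% also occur in other genes. How reads from these stretches were assigned is not known, so the opposite directions are less certain than the intervals show. Cyp2c69 had 39, 25 and 18 counts. Summed, these 4 copies were 1.10-fold (1.04 to 1.17) lower in high-fat than in chow and 1.16-fold (1.09 to 1.23) lower with DfCS-Ib than in high-fat.

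Cyp2c44 (minus strand), an arachidonic acid epoxygenase whose gene lies outside the cluster, had 2064 counts in chow, 4461 in the high-fat library and 2511 with DfCS-Ib (85.2, 165 and 104 RPKM). The order was that of Cyp2c29, with high-fat highest and chow lowest, and no difference reached 2-fold. It was 1.81-fold (1.72 to 1.91) higher in high-fat than in chow, and the DfCS-Ib level was 1.48-fold (1.41 to 1.56) below high-fat and 1.22-fold (1.15 to 1.29) above chow.

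Cyp2c55 (chromosome 19, 39006938 to 39042687, plus strand), known from colon and as a liver gene that CAR and PXR ligands induce, had 22 counts in chow, 178 in the high-fat library and 34 with DfCS-Ib (0.964, 7.003 and 1.497 RPKM). Only the high-fat library was high. It lay 6.77-fold (4.33 to 11.1) above chow, and the DfCS-Ib level was 4.36-fold (3.01 to 6.50) below it. DfCS-Ib and chow were not distinguishable at this depth, at 1.55-fold (0.881 to 2.78). Cyp2c55 was thus the one gene of the 9 that passed 2-fold between high-fat and DfCS-Ib. Its intestinal neighbours Cyp2c65 and Cyp2c66 were listed at 0 in all 3 libraries.

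Together the 9 genes took 0.183% (0.180 to 0.185) of the counts in chow, 0.583% (0.579 to 0.587) in the high-fat library and 0.475% (0.471 to 0.480) with DfCS-Ib. Their summed counts were 2.98-fold (2.93 to 3.02) higher in high-fat than in chow, 1.14-fold (1.13 to 1.16) lower with DfCS-Ib than in high-fat, and 2.60-fold (2.56 to 2.64) higher with DfCS-Ib than in chow. Without Cyp2c29 the direction of the middle comparison turned. The other 8 were 1.16-fold (1.14 to 1.18) higher with DfCS-Ib than in high-fat, and they were 1.66-fold (1.63 to 1.70) and 1.92-fold (1.88 to 1.96) above chow in high-fat and DfCS-Ib.

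The make-up of the Cyp2c transcripts therefore differed as well as their amount. Of the summed RPKM of all Cyp2c rows except Cyp2c70, Cyp2c29 made 35.9% in chow, 66.7% in high-fat and 56.0% with DfCS-Ib. Cyp2c37 made 17.4%, 6.19% and 10.7%, and ranked 2, 4 and 3. With GENCODE lengths Cyp2c50 took rank 2 in chow, at 21.6%, and Cyp2c37 rank 3, at 15.5%. With the lengths in the files Cyp2c50 made 15.0%, 10.8% and 15.3%, Cyp2c54 9.37%, 6.48% and 9.42%, and Cyp2c44 8.497%, 5.38% and 4.26%. Shares move together by construction, so a smaller share of Cyp2c50 in high-fat goes with a higher level of it.

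**Figure D4:**
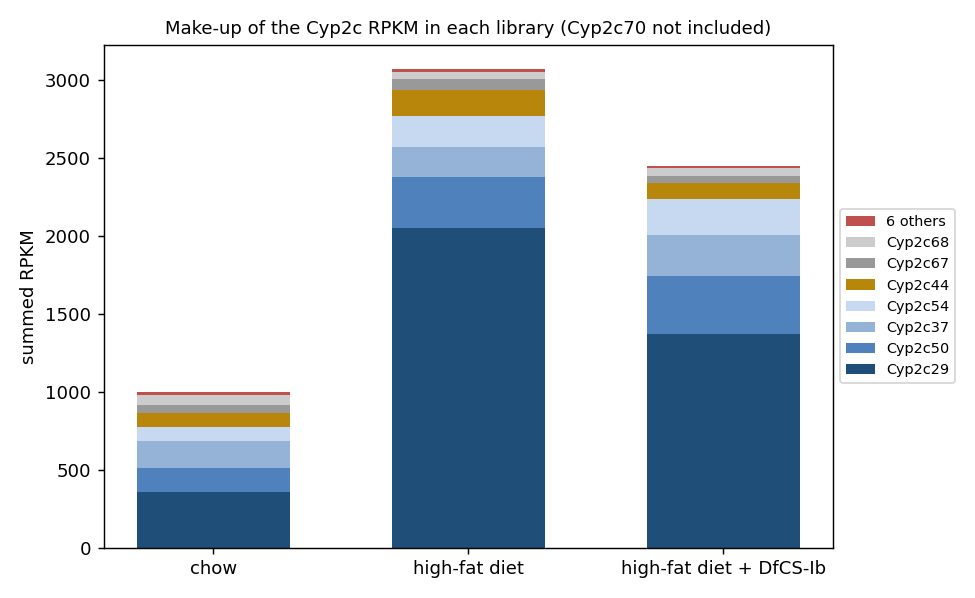
Summed RPKM of the Cyp2c rows in each library, stacked by gene, with an axis that starts at 0 and Cyp2c70 not included. The Cyp2c29 segment grows from 359 RPKM in chow to 2052 RPKM in high-fat and 1371 RPKM with DfCS-Ib, while the segments above it add up to less than that in both high-fat libraries.

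The receptors that act on Cyp2c genes differed by less than 2-fold. Nr1i3, which encodes CAR, was at 57.6, 59.5 and 57.2 RPKM in chow, high-fat and DfCS-Ib, and none of its folds lay outside counting error. Nr1i2, which encodes PXR, was at 35.0, 35.5 and 44.3 RPKM, with DfCS-Ib 1.33-fold (1.23 to 1.44) above high-fat. Rxra, their partner receptor, was at 81.2, 72.1 and 84.6 RPKM. Hnf4a was at 274, 181 and 247 RPKM, 1.63-fold (1.58 to 1.67) lower in high-fat than in chow. The direction of Hnf4a was opposite to that of Cyp2c29 there, and a link between their levels was not tested. These are transcript levels, and receptor activity was not measured.

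Beside each list below stand the shares over all genes tested. In high-fat against chow 3.47% were called higher and 2.27% lower. These shares were 2.46% and 2.02% for DfCS-Ib against high-fat, and 1.62% and 0.433% for DfCS-Ib against chow. For the 20 regulators listed, all tested, the median log2 difference of high-fat against chow was -0.07. It turned positive with plain CPM and with RPKM. Of the 20, 1 was called higher and 2 lower in high-fat than in chow. Those called were Foxa2, a pioneer factor of liver genes (log2 difference 1.43), the repressor Bcl6 (-2.16) and Cux2 (-2.14), a factor of female-type liver expression. In DfCS-Ib against high-fat 1 was called higher, Cebpb, an acute phase factor (1.72), and 1 was called lower. The list had a median of 0.06 there, which turned negative with plain CPM and with RPKM. DfCS-Ib against chow gave Cebpb higher (1.38) and Cux2 (-1.97) and Bcl6 (-1.72) lower, with a median of 0.08.

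Cytochrome P450 reductase, encoded by Por, stood apart from the enzymes it serves. It had 8110, 2284 and 9704 counts (282, 71.3 and 339 RPKM), and the high-fat library alone was low, 4.25-fold (4.05 to 4.45) below chow. DfCS-Ib was 5.10-fold (4.87 to 5.34) above high-fat. Alas1, the first enzyme of heme synthesis, had the pattern of neither Cyp2c29 nor Por: it was at 83.1, 127 and 167 RPKM, lowest in chow and highest with DfCS-Ib. Of 14 electron donor and heme genes, 2 were called higher and 1 lower in high-fat than in chow, with Cyb5b (log2 difference 1.88) and Cyb5r3 (1.25), of the cytochrome b5 route, opposite to Por (-2.08). In DfCS-Ib against high-fat 1 was higher, Por (2.34), and 3 lower, Cyb5b (-1.67), Cyb5r3 (-1.05) and Urod (-1.02). None of the 14 was called between DfCS-Ib and chow. Alas1 came nearest there, at 2.002-fold, and fell just short on the log2(CPM + 1) scale. The list's medians were 0.42, -0.12 (-0.22 with plain CPM) and 0.17.

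Ephx2, the soluble epoxide hydrolase that clears the epoxides, was at 410.4 RPKM in chow, 313 in high-fat and 364 with DfCS-Ib, so it was 1.41-fold (1.37 to 1.45) lower in high-fat. Of 15 tested genes of epoxide and arachidonic acid handling, 2 were called higher and 2 lower in high-fat than in chow. The fatty acid omega-hydroxylases Cyp4a14 (-3.16) and Cyp4a10 (-2.77) were lower and Cyp4f14 (1.24) and Cyp4a12a (1.001) higher, on the log2 scale. Cyp4a12a only just passed the threshold. The 2 called higher became 1 with DESeq2 size factors and with a pseudocount of 5 CPM. With DfCS-Ib, Cyp4a10 (2.77) and Cyp4a14 (2.66) were higher than in high-fat, 2 of 15 with none lower, and 0 of 15 were called against chow. The list's medians were 0.30 (0.15 to 0.40 over the alternatives), 0.32 (0.09 to 0.33) and 0.24.

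**Figure D5:**
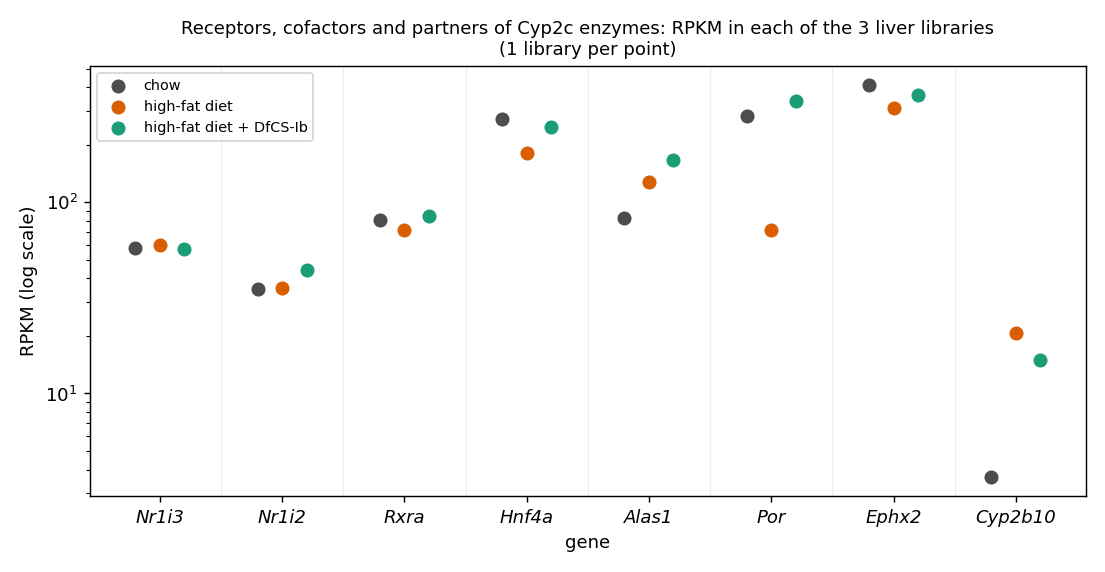
RPKM on a log axis of the receptors Nr1i3, Nr1i2, Rxra and Hnf4a, of Alas1, Por and Ephx2, and of Cyp2b10, with 1 point per library (grey chow, orange high-fat diet, green high-fat diet with DfCS-Ib). The points of Nr1i3 lie between 57.2 and 59.5, Por is low in the high-fat library only, at 71.3, and Cyp2b10 is lowest in chow at 3.67.

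Cyp2b10, the best known CAR target of mouse liver, had 76, 477 and 310 counts (3.67, 20.7 and 15.0 RPKM). It was 5.25-fold (4.11 to 6.78) higher in high-fat than in chow, 1.28-fold (1.11 to 1.49) lower with DfCS-Ib than in high-fat, and 4.09-fold (3.17 to 5.33) higher with DfCS-Ib than in chow. Its order and sizes were close to those of Cyp2c29. The other CAR and PXR targets differed among themselves: of 24 tested, 4 were called higher and 4 lower in high-fat than in chow, among them Gstm3 (2.68) and Cyp2b10 (2.24) higher and Gadd45b (-3.09) and Slco1a4 (-3.01) lower. DfCS-Ib against high-fat gave 4 higher and 2 lower, including Por (2.34), Gadd45b (2.00), Slco1a4 (1.63) and Gstm3 (-2.73). Against chow 1 was higher, Cyp2b10 (1.89), and 2 lower, Slco1a4 (-1.38) and Gadd45b (-1.09). The list's medians were 0.30, -0.28 and -0.05 (-0.09 to -0.02 over the alternatives).

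Among 26 other tested Cyp1, Cyp2 and Cyp3 genes, 3 were called higher and 0 lower in high-fat than in chow: Cyp2b10, Cyp1a2 (1.73) and Cyp2d40 (1.71). The list's median was 0.14 (0.10 to 0.23 over the alternatives), below the 0.85 of the 9 Cyp2c genes. DfCS-Ib against high-fat gave 0 higher and 2 lower, Cyp2u1 (-1.75) and Cyp3a16 (-1.16), with a median of -0.16 (-0.26 to -0.11). DfCS-Ib against chow gave 2 higher, Cyp2b10 and Cyp2d40 (1.29), and 2 lower, Cyp3a16 (-1.77) and Cyp2u1 (-1.02), with a median of 0.10. No difference between these lists and the Cyp2c genes was tested.

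The genes most like Cyp2c29 were sought among 7357 protein-coding genes that averaged at least 10 CPM, by the distance between their log2 differences from chow on either high-fat library. The nearest were Phlda1 at 0.15, Cyp2b10 at 0.17 and Slc22a7 at 0.21, followed by Cyp2c70 at 0.50 and Akr1c6 at 0.56. Phlda1 had 244, 1446 and 945 counts, and Slc22a7, an organic anion transporter, 70, 429 and 294. Cyp2c70, the neighbour left out of the set, had 1172, 5325 and 4149 counts. This likeness rests on 3 libraries.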

How the data were processed

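Total liver RNA was sequenced in 3 libraries, 1 per group. Raw counts per gene and RPKM were deposited by the authors, with each gene's length, strand and mm10 position, per the file headers. The submitters' processing notes name TopHat2 and mm10. The sources used here do not give the counter, whether it used strand, how it treated multiply placed reads, or the annotation. The deposited RPKM equalled count over length and file total, with deviations up to 0.000506% where a gene had 100 counts or more.

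TMM factors (0.976, 1.05 and 0.978 for chow, high-fat and DfCS-Ib) put the counts on a CPM scale (edgeR 4.0.16, R 4.3.3, used for scaling only). Log2 differences used CPM + 1, which understates differences of rare genes. Genes averaging at least 1 CPM were analysed. Folds of single genes are ratios of scaled counts with Clopper-Pearson intervals from the binomial split (SciPy 1.17.1), and the script was checked on simulated data. Reads without molecular identifiers are not independent molecules, so intervals and floors cover counting error only. Transcripts came from GENCODE M21 and promoters from RefSeq (GRCm38.p6). The motifs CAAAGTC, CAAAGTCCA (which contains it), AGGTCA, TTCNNNGAA and TATAAA were searched on both strands.

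The genes and lists were chosen with earlier results of these data known. Some genes stand in more than 1 list, among them Cyp2b10, Por and Cyp1a2, so the lists are not independent. Named were all 9 genes, other Cyp2c rows with a count, up to 4 called genes of each list and comparison with the largest differences, 8 genes at any value (Nr1i2, Nr1i3, Rxra, Hnf4a, Por, Alas1, Ephx2 and Cyp2b10), and the 5 nearest to Cyp2c29. The result of 1 listed gene is not reported here. Alternatives covered scaling, pseudocount, filter, threshold and summed copies; sums within 3 groups of copies and GENCODE lengths were added after seeing the data.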

Additional observations from a re-analysis of the deposited data

Results flagged for a closer look

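Cyp2c53-ps, a pseudogene row outside the 9 genes, had 0 counts in chow, 51 in the high-fat library and 5 with DfCS-Ib, a signal in a row that is not among the genes described. Setting chow at a floor of 3 counts in that library, the high-fat level as measured was at least 14.2-fold higher. The 95% exact interval of the ratio, which also covers the counting error of the 51, begins lower, at 11.1-fold. Its row spans 39229254 to 39274737 on chromosome 19 of mm10, just upstream of Cyp2c29, and of its 50-base stretches 9.11% also occur in Cyp2c29. GENCODE M21 also has a Cyp2c29 transcript, Cyp2c29-202, that starts at 39269405 within the pseudogene and shares with it 1 exon, at 39273229 to 39273370. How many of the 51 counts came from that exon or from Cyp2c29 reads was not tested.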

How the results depend on the processing

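No paired analysis was possible because each group had 1 library, and no replicate could be left out. None of the 9 Cyp2c genes changed direction under any alternative run. Sizes were less stable: 24 log2 differences of single genes moved by more than counting error, and 183 did not. Of sums over copies 12 did and 24 did not. With plain CPM, the log2 difference of Cyp2c29 for high-fat against chow went from 2.41 to 2.51. That of Cyp2c40, Cyp2c67, Cyp2c68 and Cyp2c69 summed went from -0.14 to -0.04. Called lower in high-fat than in chow was 1 gene; it became 2 with a pseudocount of 0.1 CPM (Cyp2c40 added), 0 with 5 CPM, 0 with a mean of at least 10 CPM, which removes the rare genes, and 3 at 1.5-fold, where 7.72% of all genes pass. Called higher there were 3, and 5 at 1.5-fold, where 10.4% pass. Called lower with DfCS-Ib than in high-fat was 1, and 0 with a mean of at least 10 CPM. Called lower with DfCS-Ib than in chow were 2, and 1 with RPKM, 0 with a pseudocount of 5 CPM and 1 with a mean of at least 10 CPM. With GENCODE lengths Cyp2c29 made 32.8%, 62.6% and 51.4% of the Cyp2c RPKM in chow, high-fat and DfCS-Ib. The other counts of called Cyp2c genes stayed within 1.5 times. The counts over all genes, higher and lower, were 457 and 298 for high-fat against chow, 324 and 266 for DfCS-Ib against high-fat, and 213 and 57 for DfCS-Ib against chow. They became 704 and 464, 507 and 407, and 413 and 170 with a pseudocount of 0.1 CPM, 230 and 164, 166 and 128, and 82 and 21 with 5 CPM, and 404 and 166, 176 and 234, and 125 and 31 with RPKM. With a mean of at least 10 CPM, where fewer genes were tested, they were 261 and 185, 203 and 140, and 110 and 25, and at 1.5-fold 1370 and 1015, 1002 and 942, and 748 and 402. Without the 50 most abundant genes 95 were lower for DfCS-Ib against chow. Of 60 counts of called list genes, most of them below 5, those that moved past 1.5 times were 10 and 17 with a pseudocount of 0.1 and 5 CPM, 11 with a mean of at least 10 CPM, 9 with RPKM, 4 with plain CPM, 2 with no filter, 1 with DESeq2 size factors, 0 without the 50 most abundant genes and 32 at 1.5-fold. At 2-fold the widest move was of the female-biased genes lower with DfCS-Ib than in chow, from 7 to 3. Over all genes, 60.5% of those called for high-fat against chow were higher, and 70.9% with RPKM; for DfCS-Ib against high-fat it was 54.9%, and 43.5% with plain CPM and 42.9% with RPKM. Depth limits Cyp2c39, Cyp2c40 and Cyp2c55, whose counts ran from 16 to 178.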

Other observations

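Genes with a male or female bias in liver, an axis on which several Cyp2c genes also lie, differed between these libraries of male mice. Of 17 male-biased genes tested, 8 were called higher and 0 lower in high-fat than in chow (median log2 difference 0.56, from 0.34 to 0.78 over the alternatives). With DfCS-Ib against chow it was 5 and 0 (0.69). The 8 called higher in high-fat than in chow became 5 with a pseudocount of 5 CPM. The list holds several Mup genes, which are close copies, so these counts are not of independent genes. Of all genes tested 3.47% were called higher and 2.27% lower in high-fat than in chow. With DfCS-Ib against chow it was 1.62% and 0.433%. Hsd3b5, a hydroxysteroid dehydrogenase with close copies, had 32, 3620 and 601 counts in chow, high-fat and DfCS-Ib, and Mup7, a urinary protein gene with close copies, had 208, 570 and 876. Of 23 female-biased genes listed, 13 passed the filter, and of these 1 was called higher and 8 lower in high-fat than in chow (median -1.72), among them Cyp17a1 (-2.84) and Fmo2 (-2.41). That median was -0.25 with no filter on low values, -0.91 with a pseudocount of 5 CPM and -1.02 with RPKM. With DfCS-Ib against high-fat 5 were higher and 2 lower (0.26, from 0.13 with no filter to 1.04 with a mean of at least 10 CPM), and against chow 1 was higher and 7 lower (-1.03, and -0.34 with no filter). The male-biased genes gave 1 higher and 2 lower for DfCS-Ib against high-fat (0.13, from 0.03 to 0.14).

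Cyp2c29 and several of its relatives are known as genes of hepatocytes near the central vein. Of 17 pericentral genes tested, 3 were called higher and 3 lower in high-fat than in chow (median 0.28, and 0.09 with a mean of at least 10 CPM), with Rgn (1.80) and Cyp1a2 (1.73) higher and Cyp7a1 (-1.46) and Oat (-1.31) lower. Of 15 periportal genes 0 were higher and 7 lower (-0.86), led by Etnppl (-2.34), Asl (-2.01), Sds (-1.76) and Ass1 (-1.30). DfCS-Ib against high-fat gave 2 higher and 1 lower among pericentral genes (0.08, negative with plain CPM and RPKM) and 3 and 0 among periportal genes (0.27, from 0.17 to 0.28 over the alternatives), Asl (1.34), Pck1 (1.30) and Sds (1.15). Against chow the counts were 1 and 0 (0.11) and 0 and 1 (-0.55).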
